A study of Mus musculus with 54 samples.

Results

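The jejunum of virgin female mice was compared with the duodenum of virgin female mice across all genes. The members of the comparison were the 6 libraries labelled virgin female jejunum and the 6 labelled virgin female duodenum, chosen by the label of section, sex and mating status, 12 of the 54 libraries of the series. Each library held polyadenylated RNA of tissue from 1 section, made with a strand-specific kit. The mice carried no treatment and no allele that the labels name, they ate a standard diet, and they were matched in age to lactating females of day 7. The labels give neither strain nor age in weeks, and they do not say that each library came from a separate animal, so p-values measure the spread between these samples, which may be technical. Virgin males (6 jejunum and 6 duodenum libraries) and females on day 7 of lactation (6 and 6) were read as separate sets in which the same comparison was made.

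The duodenum receives stomach contents, bile and pancreatic juice, and is known as the main site of iron and calcium uptake. The jejunum follows it and is known for the digestion of protein and the absorption of amino acids, sugars and fat. Both are lined by villi of enterocytes with crypts at their base, and in bulk tissue fewer cells of a type and less RNA per cell cannot be told apart.

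Reads assigned to genes ran from 19550437 to 25503240 in the jejunum libraries and from 19591617 to 26923744 in the duodenum libraries, with reads for 17106 to 17558 genes in the jejunum and 17534 to 17808 in the duodenum. The first principal component of the 12 libraries held 60.0% of the variance of the 1000 most variable genes and separated the sections. The second held 13.6% and set jejunum 1, 5 and 6 apart from jejunum 2, 3 and 4. Several libraries stood apart within their section. Duodenum 4 alone carried the B cell transcripts Pax5 and Blk at a high level. Duodenum 3 alone carried albumin transcripts at a high level and nearly lacked those of the exocrine pancreas. Duodenum 2 was the highest of its section in many of the genes that marked the duodenum. Results that rest on these libraries are given with and without them.

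Of 15154 genes tested with edgeR's quasi-likelihood F test, 5635 were called at an adjusted p under 0.05, which was 37.2% of those tested. In the jejunum 2599 genes were higher (17.2%) and 3036 lower (20.0%). Leaving out duodenum 3 and 4 together left 2280 higher and 2456 lower. Most differences were small: 514 called genes were at least 2-fold higher and 840 at least 2-fold lower, while 134 and 127 passed 4-fold and 23 and 15 passed 32-fold. All 6 jejunum libraries lay outside the range of all 6 duodenum libraries for 2547 genes (16.8%), above it for 1426 (9.41%) and below it for 1121 (7.40%). The split into higher and lower depends on the scaling: with library totals alone the median of all genes moved by -0.22 on the log2 scale, and 1394 genes were called higher and 5650 lower. Log2 fold changes below are jejunum over duodenum, given with their standard error and the adjusted p of that edgeR test. Levels are scaled reads (CPM), and 3 values for a section are the lowest, median and highest of its 6 libraries.

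The genes with the largest fold rises in the jejunum were low or nearly silent in the duodenum. Slc5a8, a sodium-coupled transporter of short-chain fatty acids and other monocarboxylates, had 83.5, 102 and 171 CPM in the jejunum, against 0, 0 and 0.125 CPM in the duodenum (log2 fold change 11.76 ± 0.35, adjusted p = 2.44e-14). Its duodenal level rests on 4 reads in all, and the fitted change was 13.03 without duodenum 3 and 14.37 without duodenum 3 and 4. Plb1, a brush border phospholipase, had 137, 349 and 1692 CPM in the jejunum, against 0.125, 0.238 and 0.616 CPM in the duodenum (10.86 ± 0.83, adjusted p = 1.32e-08). Jejunum 3 was far above the other jejunum libraries in Plb1, and the change without it was 10.03. Fam151a had 75.4, 177 and 236 CPM in the jejunum, against 0.132, 0.221 and 0.338 CPM in the duodenum (9.41 ± 0.42, adjusted p = 1.08e-11). Enpp7, the alkaline sphingomyelinase that digests sphingomyelin in the gut lumen, had 1091, 1417 and 1836 CPM in the jejunum, against 2.198, 24.8 and 51.9 CPM in the duodenum (5.78 ± 0.63, adjusted p = 1.34e-06). The sections did not overlap in any of these 4 genes.

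Plb1, Fam151a and Enpp7 were high in the jejunum and low on both sides of it, since the ileum of virgin females averaged 2.17, 0.356 and 9.81 CPM of them. Slc5a8 was higher still in the ileum, at 271 CPM. Other leading rises were also genes with a high ileal level. Fgf15, an intestinal hormone that lowers hepatic production of bile acids, had 0.362, 2.25 and 5.697 CPM in the jejunum and no read in any duodenum library, so it was at least 137-fold higher over the groups. Hoxc8, a homeobox gene of posterior position, had 2.57, 4.89 and 7.61 CPM in the jejunum and again no duodenal read, at least 236-fold higher. The ileum averaged 38.5 CPM of Fgf15 and 17.9 CPM of Hoxc8.

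Duox2, an epithelial oxidase that releases hydrogen peroxide, had 47.1, 121 and 886 CPM in the jejunum, against 0.685, 1.78 and 3.86 CPM in the duodenum (6.87 ± 0.76, adjusted p = 1.75e-06). Its maturation factor Duoxa2 had 3.602, 12.6 and 198 CPM in the jejunum, against 0.189, 0.472 and 1.495 CPM in the duodenum (6.11 ± 0.99, adjusted p = 1.14e-04). Jejunum 5 carried the highest level of both, and without it the changes were 5.66 and 4.13, still called. P2ry4, a receptor for extracellular nucleotides, was low throughout, at 1.13, 4.78 and 5.66 CPM in the jejunum, against 0, 0.0611 and 0.263 CPM in the duodenum (5.74 ± 0.60, adjusted p = 7.93e-07), and the fitted change was 6.56 without duodenum 5. The remaining leading rises were the Paneth cell defensins Defa32, Defa20 and Defa2, described with their cell type below.

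Measured by the gain in mean CPM, the jejunum's largest increases were in abundant enterocyte genes. Fabp2, the intestinal fatty acid binding protein, had 8302, 10641 and 13902 CPM in the jejunum, against 973, 1587 and 2151 CPM in the duodenum (2.79 ± 0.25, adjusted p = 9.46e-08). Anpep, the brush border aminopeptidase N, had 8578, 10027 and 11334 CPM in the jejunum, against 1094, 2591 and 4036 CPM in the duodenum (1.99 ± 0.25, adjusted p = 7.82e-06). The others were Apob (1.12 ± 0.24) and Apoa1 (0.84 ± 0.28), structural proteins of lipoprotein particles, Krt20, a keratin of mature villus cells (1.03 ± 0.15), Clca4b (1.95 ± 0.24), Selenop, the plasma selenium carrier (0.76 ± 0.22), and Reg3b, a secreted antibacterial lectin (1.56 ± 0.57, adjusted p = 0.0376). The sections overlapped in Selenop and Reg3b and in none of the other 6. Of these 8 calls, 2 depended on single libraries: Apoa1 was not called without duodenum 4 (adjusted p = 0.0545), and Reg3b was lost without any of 6 libraries, with adjusted p up to 0.117.

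**Figure D1:**
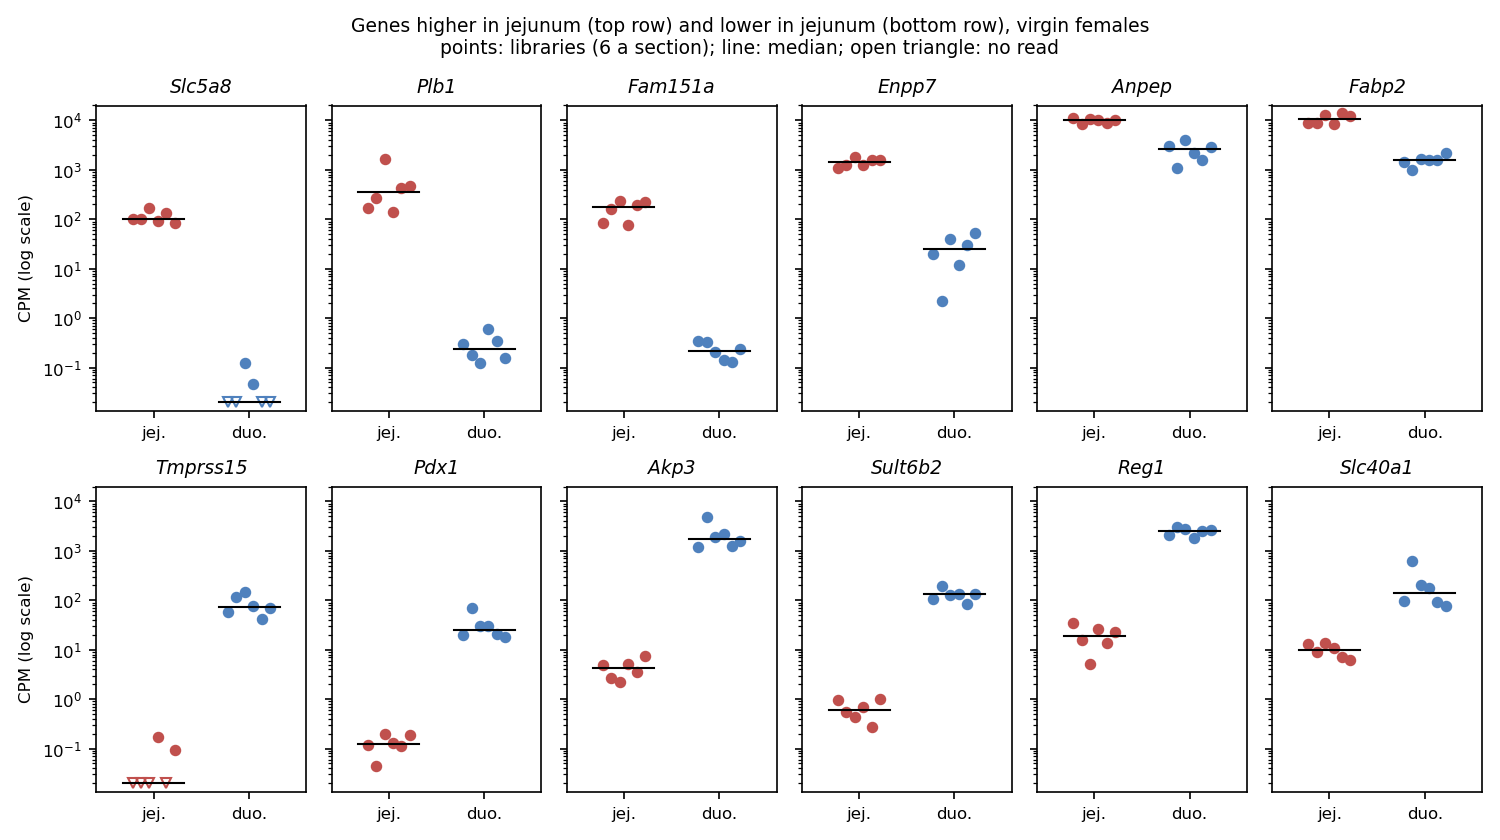
CPM on a log axis of 6 genes higher in the jejunum (top row) and 6 lower in it (bottom row). Each point is a virgin female library (6 of the jejunum on the left and 6 of the duodenum on the right of each panel), the line is the section's median and an open triangle is a library with no read. No panel's sections overlap. Slc5a8, Plb1 and Fam151a are near 0 in the duodenum, whereas Anpep and Fabp2 are abundant in both sections.

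The genes that set the duodenum apart included the switch that starts protein digestion. Tmprss15 encodes enteropeptidase, which activates pancreatic trypsinogen, and had 0, 0 and 0.172 CPM in the jejunum, against 42.2, 73.9 and 149.7 CPM in the duodenum (-10.61 ± 0.53, adjusted p = 3.71e-09). Its jejunal level rests on 6 reads, and the fitted change was -11.70 without jejunum 4. Akp3, an intestinal alkaline phosphatase, had 2.17, 4.299 and 7.58 CPM in the jejunum, against 1183, 1748 and 4856 CPM in the duodenum (-8.95 ± 0.47, adjusted p = 8.83e-11). Pdx1, a transcription factor of duodenum and pancreas, had 0.0453, 0.125 and 0.198 CPM in the jejunum, against 18.4, 25.4 and 68.9 CPM in the duodenum (-7.84 ± 0.44, adjusted p = 2.56e-10). Sult6b2, of the sulfotransferase family, had 0.277, 0.616 and 1.03 CPM in the jejunum, against 82.2, 131 and 198 CPM in the duodenum (-7.62 ± 0.27, adjusted p = 2.28e-13). Reg1, a secreted protein of the regenerating family that the exocrine pancreas also makes, had 5.14, 19.4 and 33.9 CPM in the jejunum, against 1797, 2558 and 3045 CPM in the duodenum (-6.98 ± 0.38, adjusted p = 1.60e-10). In these 5 genes the lowest duodenum library stood far above the highest jejunum library. Duodenum 3, the library with almost no pancreatic transcripts, was not the lowest in Reg1, and what pancreatic tissue contributes to Reg1 was not tested.

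Otop3, a proton channel of the otopetrin family, had 0.296, 0.749 and 1.31 CPM in the jejunum, against 55.8, 60.5 and 200.0 CPM in the duodenum (-6.66 ± 0.39, adjusted p = 4.14e-10). Slc37a2, a sugar phosphate exchanger, had 0.608, 0.957 and 2.102 CPM in the jejunum, against 14.4, 28.3 and 118 CPM in the duodenum (-5.34 ± 0.46, adjusted p = 8.70e-08), and Slc16a9, of the monocarboxylate transporter family, had 0.498, 0.812 and 1.38 CPM in the jejunum, against 12.7, 26.1 and 53.1 CPM in the duodenum (-4.99 ± 0.32, adjusted p = 1.51e-09). Duodenum 2 was the highest duodenum library in Akp3, Pdx1, Otop3 and Slc37a2. Without it the change of Slc37a2 was -4.73.

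By loss of mean CPM the jejunum's largest decreases were, besides Akp3 and Reg1, in Fth1, the ferritin heavy chain that stores iron (1975, 2263 and 2659 CPM in the jejunum, against 6866, 7757 and 14156 CPM in the duodenum, -2.0 ± 0.22, adjusted p = 1.72e-06), and Papss2, which makes the sulfate donor of sulfotransferases (207, 246 and 291 CPM in the jejunum, against 1780.0, 2479 and 2963 CPM in the duodenum, -3.27 ± 0.17, adjusted p = 8.83e-11). Prap1 (-1.35 ± 0.28), Plac8 (-1.06 ± 0.21), the pyruvate kinase Pkm (-1.03 ± 0.13) and Pigr, the receptor that carries immunoglobulin A across the epithelium (-0.81 ± 0.17), fell by less. Pigr was the only one of these 8 in which the sections overlapped. Jejunum 1 was its highest jejunum library.

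Promoter sequence was read for 6 of the leading genes from RefSeq on GRCm38.p6, and the 4 in which a motif was matched are shown, to set beside their opposite changes. Each sequence is the 250 bases before the gene's start, written 5′ to 3′ on the gene's strand, and capitals mark matches to the motifs searched. Fam151a (chr4:106733665-106733914, plus strand) and Enpp7 (chr11:118987931-118988180, plus strand) were higher in the jejunum, and Sult6b2 (chr6:142804467-142804716, minus strand) and Tmprss15 (chr16:79091098-79091347, minus strand) were lower in it.
Fam151a: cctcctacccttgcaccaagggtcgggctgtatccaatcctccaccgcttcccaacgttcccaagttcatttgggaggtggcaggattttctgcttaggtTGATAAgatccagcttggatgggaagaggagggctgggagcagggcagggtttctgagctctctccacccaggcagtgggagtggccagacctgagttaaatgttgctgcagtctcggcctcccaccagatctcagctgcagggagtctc
Enpp7: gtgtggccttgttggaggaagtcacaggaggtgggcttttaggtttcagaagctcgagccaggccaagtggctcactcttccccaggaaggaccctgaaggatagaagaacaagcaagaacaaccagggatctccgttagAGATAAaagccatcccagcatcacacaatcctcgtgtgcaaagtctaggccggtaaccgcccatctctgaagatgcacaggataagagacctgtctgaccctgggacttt
Sult6b2: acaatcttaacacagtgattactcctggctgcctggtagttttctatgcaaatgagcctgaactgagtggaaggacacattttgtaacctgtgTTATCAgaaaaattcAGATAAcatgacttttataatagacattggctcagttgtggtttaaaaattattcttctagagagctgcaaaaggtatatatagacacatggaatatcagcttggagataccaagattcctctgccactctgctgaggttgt
Tmprss15: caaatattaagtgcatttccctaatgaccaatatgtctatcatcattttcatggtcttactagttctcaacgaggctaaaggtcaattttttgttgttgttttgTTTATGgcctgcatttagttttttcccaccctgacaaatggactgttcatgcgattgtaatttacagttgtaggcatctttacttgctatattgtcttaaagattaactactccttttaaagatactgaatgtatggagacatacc
The motifs were AGATAA or TGATAA for GATA factors, TTTATG for CDX factors and CAAAGTCC for HNF4 factors, on both strands. The 6 genes were picked after their values were seen.

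Fam151a and Enpp7 each held 1 GATA match and Sult6b2 held 2, 1 of them on the other strand, while Tmprss15 held 1 CDX match. The windows of Slc5a8, a leading rise, and Akp3, a leading fall, held no match to any of the motifs. Across the genes with a single RefSeq promoter, 28.9% of 83 called genes at least 4-fold higher in the jejunum held a GATA match, as did 28.3% of 92 at least 4-fold lower, against 9.65% of all 9556 tested genes. The CDX match was in 12%, 14.1% and 6.33% of the same sets, and the HNF4 match in 1.2%, 3.26% and 1.52%. The windows differed in base composition, with a median of 52.4% G and C for the genes higher in the jejunum, 50% for those lower and 59.6% for all, and its part in these shares was not tested.

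Regional transcription factors changed in both directions, with more rises. Of 33 listed, 30 were tested, 14 rose and 3 fell, with a median log2 change of 0.41 where that of all genes was -0.05. Osr2, a zinc finger factor, had 61.02, 81.96 and 109.9 CPM in the jejunum, against 0, 1.59 and 5.76 CPM in the duodenum (5.13 ± 0.51, adjusted p = 4.85e-07), and it had no read in the duodenum 2 library. Klf4, a factor of differentiated epithelium, had 502, 512 and 820.1 CPM in the jejunum, against 131, 179.8 and 300.2 CPM in the duodenum (1.47 ± 0.19, adjusted p = 7.97e-06). Pdx1 and Onecut2 led the falls, Onecut2 with 8.89, 30.7 and 37.7 CPM in the jejunum, against 119, 149.6 and 191 CPM in the duodenum (-2.41 ± 0.24, adjusted p = 4.58e-07). Jejunum 3 was the lowest library in Onecut2, a gene at 0.322 CPM in the ileum. The sections did not overlap in these 4 genes.

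The Hox genes, which record position along the body axis, followed with 11 higher and 2 lower of 24 tested (median 0.43). Besides Hoxc8, Hoxb8 had 1.49, 2.67 and 5.39 CPM in the jejunum, against 0.166, 0.272 and 0.549 CPM in the duodenum (3.19 ± 0.33, adjusted p = 7.03e-07) and averaged 25.7 CPM in the ileum. Hoxc9 was called on 6 jejunal reads against none in the duodenum, at least 2.38-fold higher, and the call was lost without jejunum 4 (adjusted p = 0.0723) or jejunum 5, and without duodenum 3 and 4.

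Protein digestion and amino acid uptake were higher in the jejunum as a group. Of 16 tested brush border peptidases 13 rose, Tmprss15 alone fell, and the median change was 1.5. The summed level of the list was 26520 to 30971 CPM in the jejunum libraries and 5603 to 14086 CPM in the duodenum libraries. Xpnpep2, an aminopeptidase P that cuts next to proline, had 387, 444 and 564 CPM in the jejunum, against 13.7, 28.3 and 46.98 CPM in the duodenum (3.95 ± 0.25, adjusted p = 8.98e-10). Naaladl1, a peptidase related to glutamate carboxypeptidase, had 1986, 2404 and 2675 CPM in the jejunum, against 92.7, 149 and 270.2 CPM in the duodenum (3.91 ± 0.23, adjusted p = 4.99e-10). For all 13 risers the jejunum libraries lay above the duodenum libraries.

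Among 20 tested peptide and amino acid transporters, 13 rose and none was called lower by edgeR (median 0.80). With library totals alone 11 rose and 1 fell. Slc15a1, the brush border carrier of di- and tripeptides, had 1084, 1163 and 1290.5 CPM in the jejunum, against 158, 262 and 415 CPM in the duodenum (2.04 ± 0.22, adjusted p = 1.56e-06). Slc1a1, which takes up glutamate and aspartate, had 40.9, 54.8 and 59.6 CPM in the jejunum, against 13.9, 16.9 and 20.1 CPM in the duodenum (1.63 ± 0.12, adjusted p = 1.08e-08). Slc43a2, a carrier of large neutral amino acids, had 1079, 1159 and 1443 CPM in the jejunum, against 387, 511 and 743 CPM in the duodenum (1.18 ± 0.16, adjusted p = 1.76e-05). Slc15a1 peaked in the jejunum, with 262 CPM in the ileum, whereas Slc1a1 was higher in the ileum at 189.7 CPM.

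Sugar digestion and uptake did not move as a group. Of 20 tested members 4 rose and 6 fell (median -0.35), and 3 fell without jejunum 3, without duodenum 6 or without duodenum 3 and 4. Lct, the lactase, had 3269.9, 4097 and 4861 CPM in the jejunum, against 1029, 1778 and 2992 CPM in the duodenum (1.02 ± 0.24, adjusted p = 0.00239). Slc5a4b, of the sodium-glucose cotransporter family, had 133, 193 and 350.1 CPM in the jejunum, against 11.9, 30.7 and 84.9 CPM in the duodenum (2.52 ± 0.41, adjusted p = 1.17e-04). Fbp1, an enzyme of gluconeogenesis, was lower with 29.3, 36.4 and 62.6 CPM in the jejunum, against 62.05, 95.2 and 141 CPM in the duodenum (-1.30 ± 0.25, adjusted p = 6.45e-04). The sections overlapped narrowly in Fbp1 and did not overlap in the other two.

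The main carrier and the main disaccharidase of dietary sugar were not called. Slc5a1, the glucose carrier SGLT1, had 3199, 3761 and 5411 CPM in the jejunum, against 2934, 4162 and 6948 CPM in the duodenum (-0.13 ± 0.21, adjusted p = 0.658). Sis, the sucrase-isomaltase, had 2384, 3551 and 3969 CPM in the jejunum, against 1757, 2599 and 6041 CPM in the duodenum (-0.01 ± 0.28, adjusted p = 0.988). In each gene the jejunum libraries lay inside a wider range of duodenum libraries, and the sign of both estimates turned under some alternatives.

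Genes of fat absorption were mostly higher in the jejunum. Of 30 tested, 19 rose and 2 fell (4 without jejunum 5 and 1 without duodenum 6), with a median change of 0.64. The summed level was 64353 to 99327 CPM in the jejunum, against 28591 to 51485 CPM in the duodenum. After Fabp2, the largest rise was in Acsl3, which activates long-chain fatty acids, with 62.2, 73.7 and 178 CPM in the jejunum, against 19.1, 24.5 and 34.1 CPM in the duodenum (1.86 ± 0.25, adjusted p = 1.41e-05). Scarb1, a receptor for high-density lipoprotein that also takes part in lipid uptake, fell with 10.5, 29.8 and 78.05 CPM in the jejunum, against 118, 165 and 230.3 CPM in the duodenum (-2.31 ± 0.34, adjusted p = 3.87e-05). Neither gene's sections overlapped.

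Apoa4, a chylomicron protein, and Fabp1, the liver-type fatty acid binding protein, differed by less. Apoa4 had 14522, 18629 and 32441 CPM in the jejunum, against 8309, 13285 and 17119.6 CPM in the duodenum (0.69 ± 0.37, adjusted p = 0.158) and was not called. Fabp1 had 1873, 2798 and 3868 CPM in the jejunum, against 718, 1513 and 2434 CPM in the duodenum (0.82 ± 0.31, adjusted p = 0.0426), and its call was lost in 9 of the 12 fits without 1 library, with adjusted p up to 0.118 over all alternatives. Both genes overlapped between sections.

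Cholesterol synthesis had 11 rises and 1 fall among 25 tested genes with a median of 0.21, which was -0.01 when libraries were scaled by totals alone. The fall was lost without any of 6 libraries. Sc5d, an enzyme of the last steps, had 151, 169 and 197 CPM in the jejunum, against 71.2, 90.6 and 120.5 CPM in the duodenum (0.90 ± 0.12, adjusted p = 1.94e-05). Stard4, a carrier of cholesterol inside the cell, rose by 0.96 ± 0.12. Fatty acid oxidation had 5 rises and 2 falls of 26 (median 0.05, and -0.17 with totals alone), and 8 rises without duodenum 3 or without duodenum 6, 4 falls without jejunum 6 and 1 fall without duodenum 6. Called members made up 26.9% of that list, below the 37.2% of all genes. Slc25a20, which carries acylcarnitines into mitochondria, rose by 0.90 ± 0.15 and Acox2, a peroxisomal oxidase, by 1.23 ± 0.36, while the thiolase Acaa2 fell by 0.72 ± 0.17.

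Of 14 tested genes of ileal bile acid handling 6 rose and 1 fell (median 0.14, and -0.07 with totals alone). Slc10a2, the importer of bile acids, had 2.28, 3.28 and 14.1 CPM in the jejunum, against 0.482, 0.992 and 1.23 CPM in the duodenum (2.45 ± 0.41, adjusted p = 1.60e-04). Fabp6, which binds bile acids in ileal cells, had 0.241, 0.832 and 13.7 CPM in the jejunum, against 0.03603, 0.0807 and 0.338 CPM in the duodenum (4.65 ± 1.05, adjusted p = 0.00196). Jejunum 3 held the highest level of both and of Plb1, and without it the changes were 1.80 for Slc10a2 and 2.67 for Fabp6, both still called. The change of Fabp6 was 5.35 without duodenum 1. These levels stayed far below those of the ileum, which averaged 837 and 3473 CPM.

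Iron genes went both ways, with 6 rises and 8 falls of 24 tested (median -0.16), and for all 8 falls the sections did not overlap. Its summed level was 4738 to 5781 CPM in the jejunum and 9658 to 17991 CPM in the duodenum. Cybrd1, the ferric reductase of the brush border, had 1.99, 3.35 and 6.28 CPM in the jejunum, against 8.195, 11.9 and 72.6 CPM in the duodenum (-2.55 ± 0.48, adjusted p = 4.51e-04). Slc11a2, which carries ferrous iron into the cell, had 51.3, 54.7 and 59.2 CPM in the jejunum, against 69.05, 72.96 and 109.8 CPM in the duodenum (-0.57 ± 0.12, adjusted p = 0.00139). Slc40a1, the iron exporter ferroportin, had 6.08, 9.77 and 13.9 CPM in the jejunum, against 76.2, 138 and 632 CPM in the duodenum (-4.42 ± 0.45, adjusted p = 6.20e-07). The genes named here for reduction, import, storage (Fth1) and export were thus each lower, and that for import by the least.

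Duodenum 2 held the highest level of Cybrd1 and Slc40a1 by far. Without it the changes were -1.68 and -3.70, both still called. Flvcr2, a transporter first described for heme, went the other way with 4.701, 11.8 and 14.8 CPM in the jejunum, against 0.307, 0.572 and 0.675 CPM in the duodenum (4.36 ± 0.44, adjusted p = 4.91e-07).

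Of 16 tested genes of calcium, phosphate and vitamin D, 2 rose and 8 fell (median -0.46), and the falls include the phosphatase Akp3, Slc37a2 and Cldn2. S100g, calbindin-D9k, which carries calcium through the enterocyte, had 1.33, 2.61 and 4.702 CPM in the jejunum, against 20.8, 37.1 and 244 CPM in the duodenum (-4.69 ± 0.56, adjusted p = 4.24e-06), and the change was -3.73 without duodenum 2. Slc34a2, the sodium-phosphate carrier of the brush border, had 719, 1101 and 1255 CPM in the jejunum, against 6.74, 15.95 and 48.5 CPM in the duodenum (5.64 ± 0.42, adjusted p = 9.20e-09) and averaged 938 CPM in the ileum. The 2 sections were far apart in both genes.

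Vitamin genes went both ways. Of 22 tested 7 rose and 6 fell (median -0.23). Slc23a1, which carries ascorbate, had 73.4, 81.9 and 128 CPM in the jejunum, against 0.324, 3.06 and 7.55 CPM in the duodenum (4.62 ± 0.43, adjusted p = 2.07e-07) and was at 0.0602 CPM in the ileum. Slc52a3, a riboflavin carrier, had 196, 241 and 327 CPM in the jejunum, against 25.1, 28.2 and 35.4 CPM in the duodenum (3.07 ± 0.16, adjusted p = 8.83e-11). Slc19a3, a thiamine carrier, was lower with 0.8400, 1.39 and 2.76 CPM in the jejunum, against 12.3, 16.3 and 19.8 CPM in the duodenum (-3.39 ± 0.25, adjusted p = 7.67e-09). None of the 3 overlapped between sections.

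Zinc and copper genes went both ways, 6 higher and 4 lower of 15 (median 0.40). Mt2, a metal-binding metallothionein, rose with 22.8, 69.99 and 145 CPM in the jejunum, against 12.8, 23.3 and 39.4 CPM in the duodenum (1.76 ± 0.50, adjusted p = 0.00981), and Mtf1, the metal-sensing factor that activates metallothionein genes, rose by 0.96 ± 0.11. Slc30a10, a manganese exporter, fell with 49.1, 54.3 and 60.8 CPM in the jejunum, against 84.4, 104 and 280.3 CPM in the duodenum (-1.25 ± 0.24, adjusted p = 5.98e-04). The sections overlapped in Mt2 and in neither of the other two.

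**Figure D2:**
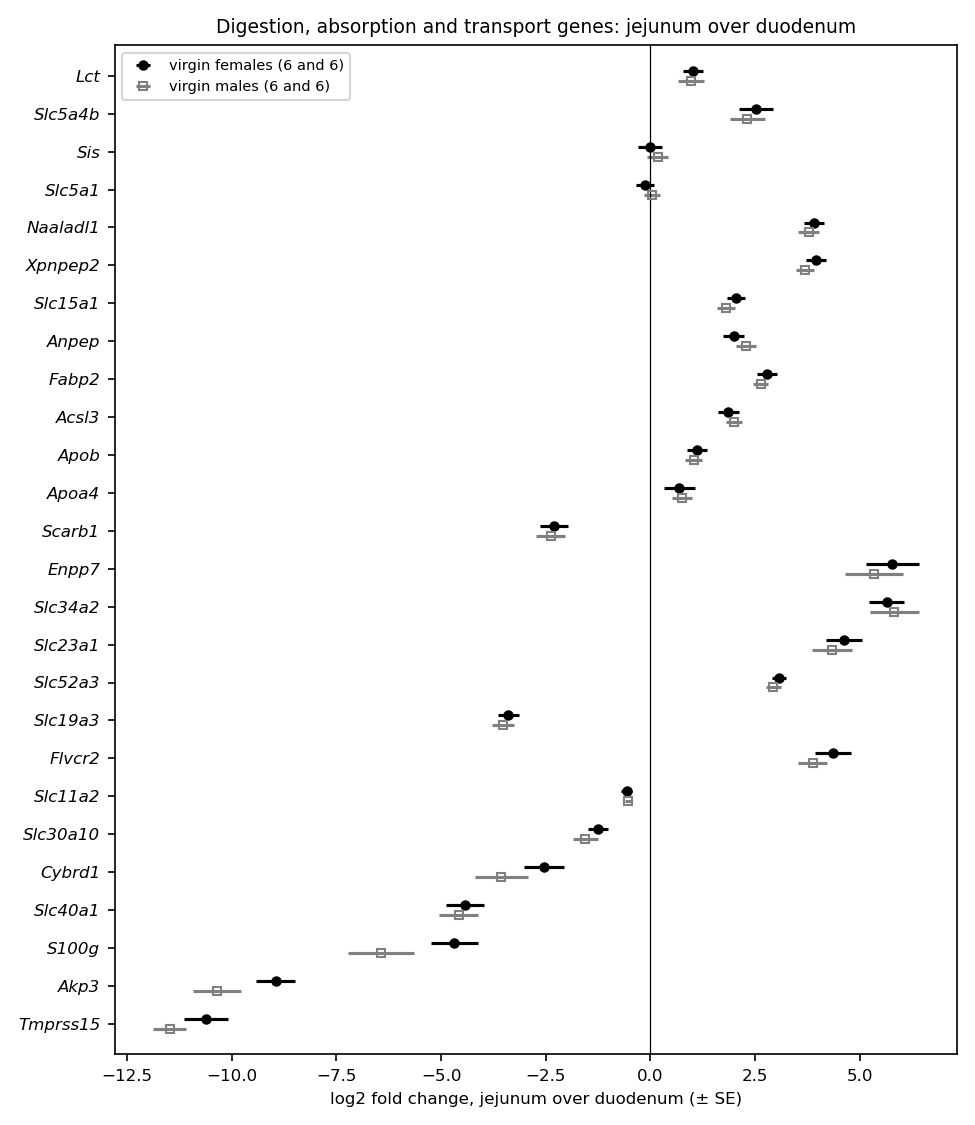
Log2 fold change of jejunum over duodenum for genes of sugar, protein, fat, vitamin and mineral handling, with standard errors (filled circles: virgin females, 6 and 6 libraries, open squares: virgin males, 6 and 6). Slc5a1 and Sis sit near 0, peptidase and peptide carrier genes sit to the right, Cybrd1, Slc40a1 and S100g to the left, and Tmprss15 and Akp3 lie farthest left.

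Transporters of ions, acids and short-chain fatty acids had 15 rises and 6 falls of 32 tested (median 0.33). After Slc5a8 came its relative Slc5a12, a lactate carrier, with 306, 431 and 469 CPM in the jejunum, against 0.144, 24.3 and 83.6 CPM in the duodenum (3.70 ± 0.67, adjusted p = 3.00e-04). The duodenum spread widely in it, and duodenum 2 was the lowest library. The change of Slc5a12 was 4.34 without duodenum 6. Aqp8, a water channel, was lower at 0, 0.177 and 0.277 CPM in the jejunum, against 1.39, 3.94 and 6.62 CPM in the duodenum (-4.54 ± 0.42, adjusted p = 1.99e-07). Nucleoside genes had 7 rises and 3 falls of 14 (median 0.39): Nt5e, the ectoenzyme that makes adenosine from AMP, had 225, 313 and 661 CPM in the jejunum, against 32.2, 44.7 and 74.9 CPM in the duodenum (2.83 ± 0.35, adjusted p = 5.71e-06). The nucleoside carriers Slc28a1 (1.78 ± 0.42) and Slc28a2 (0.77 ± 0.30, adjusted p = 0.0476) rose with overlapping sections, and the call of Slc28a2 was lost in 8 of 12 fits without 1 library.

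Among enzymes of the urea cycle, proline and polyamines, 6 rose and 3 fell of 18 (median 0.14, and -0.07 with totals alone), and 5 fell without duodenum 1. Aoc1, the diamine oxidase that breaks down histamine and polyamines, had 1198, 1710.5 and 1887 CPM in the jejunum, against 196, 315 and 611 CPM in the duodenum (2.15 ± 0.24, adjusted p = 1.53e-06). Maob, a monoamine oxidase, had 231, 253 and 323 CPM in the jejunum, against 66.7, 71.6 and 90.3 CPM in the duodenum (1.82 ± 0.12, adjusted p = 2.66e-09). Cps1, the first enzyme of the urea cycle and of citrulline synthesis in the gut, was lower with 170.5, 241 and 377 CPM in the jejunum, against 594, 712 and 817 CPM in the duodenum (-1.5 ± 0.15, adjusted p = 6.61e-07). Both amine oxidases were thus higher and the carbamoyl phosphate synthetase lower in every jejunum library than in any duodenum library.

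Conjugation enzymes of drug metabolism were more often lower in the jejunum. Of 38 tested 7 rose and 16 fell (median -0.15), and the falls made up 42.1% of them where 20.0% of all genes fell. Of 33 cytochromes P450 and retinol enzymes 5 rose and 8 fell (median -0.16), and the falls made up 24.2%, near the share of all genes. Gsta4, a glutathione transferase that handles lipid peroxidation products, had 22.00, 32.2 and 65.2 CPM in the jejunum, against 177, 244 and 442 CPM in the duodenum (-2.83 ± 0.29, adjusted p = 6.02e-07). Gsta1, of the same family, had 9.39, 15.96 and 31.8 CPM in the jejunum, against 83.1, 118 and 142 CPM in the duodenum (-2.58 ± 0.26, adjusted p = 6.36e-07), and the carboxylesterase Ces1g had 0.172, 1.01 and 4.21 CPM in the jejunum, against 5.15, 9.88 and 22.2 CPM in the duodenum (-2.90 ± 0.50, adjusted p = 1.81e-04). Cyp1a1, a P450 induced through the aryl hydrocarbon receptor, had 0.679, 1.88 and 3.44 CPM in the jejunum, against 3.53, 14.1 and 25.1 CPM in the duodenum (-2.98 ± 0.42, adjusted p = 2.44e-05). Adh4, an alcohol dehydrogenase, had 4.56, 7.004 and 8.75 CPM in the jejunum, against 26.4, 41.4 and 57.6 CPM in the duodenum (-2.59 ± 0.23, adjusted p = 1.14e-07). All 5 fell without overlap, and Ces1g was at -3.61 without jejunum 6. Cyp2c29 also fell (-3.31 ± 0.77) with overlapping sections, and its change was -2.07 without duodenum 6, which was far above the rest, and -4.07 without jejunum 6. Genes of these families share sequence with close relatives, so reads may be split between them.

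**Figure D3:**
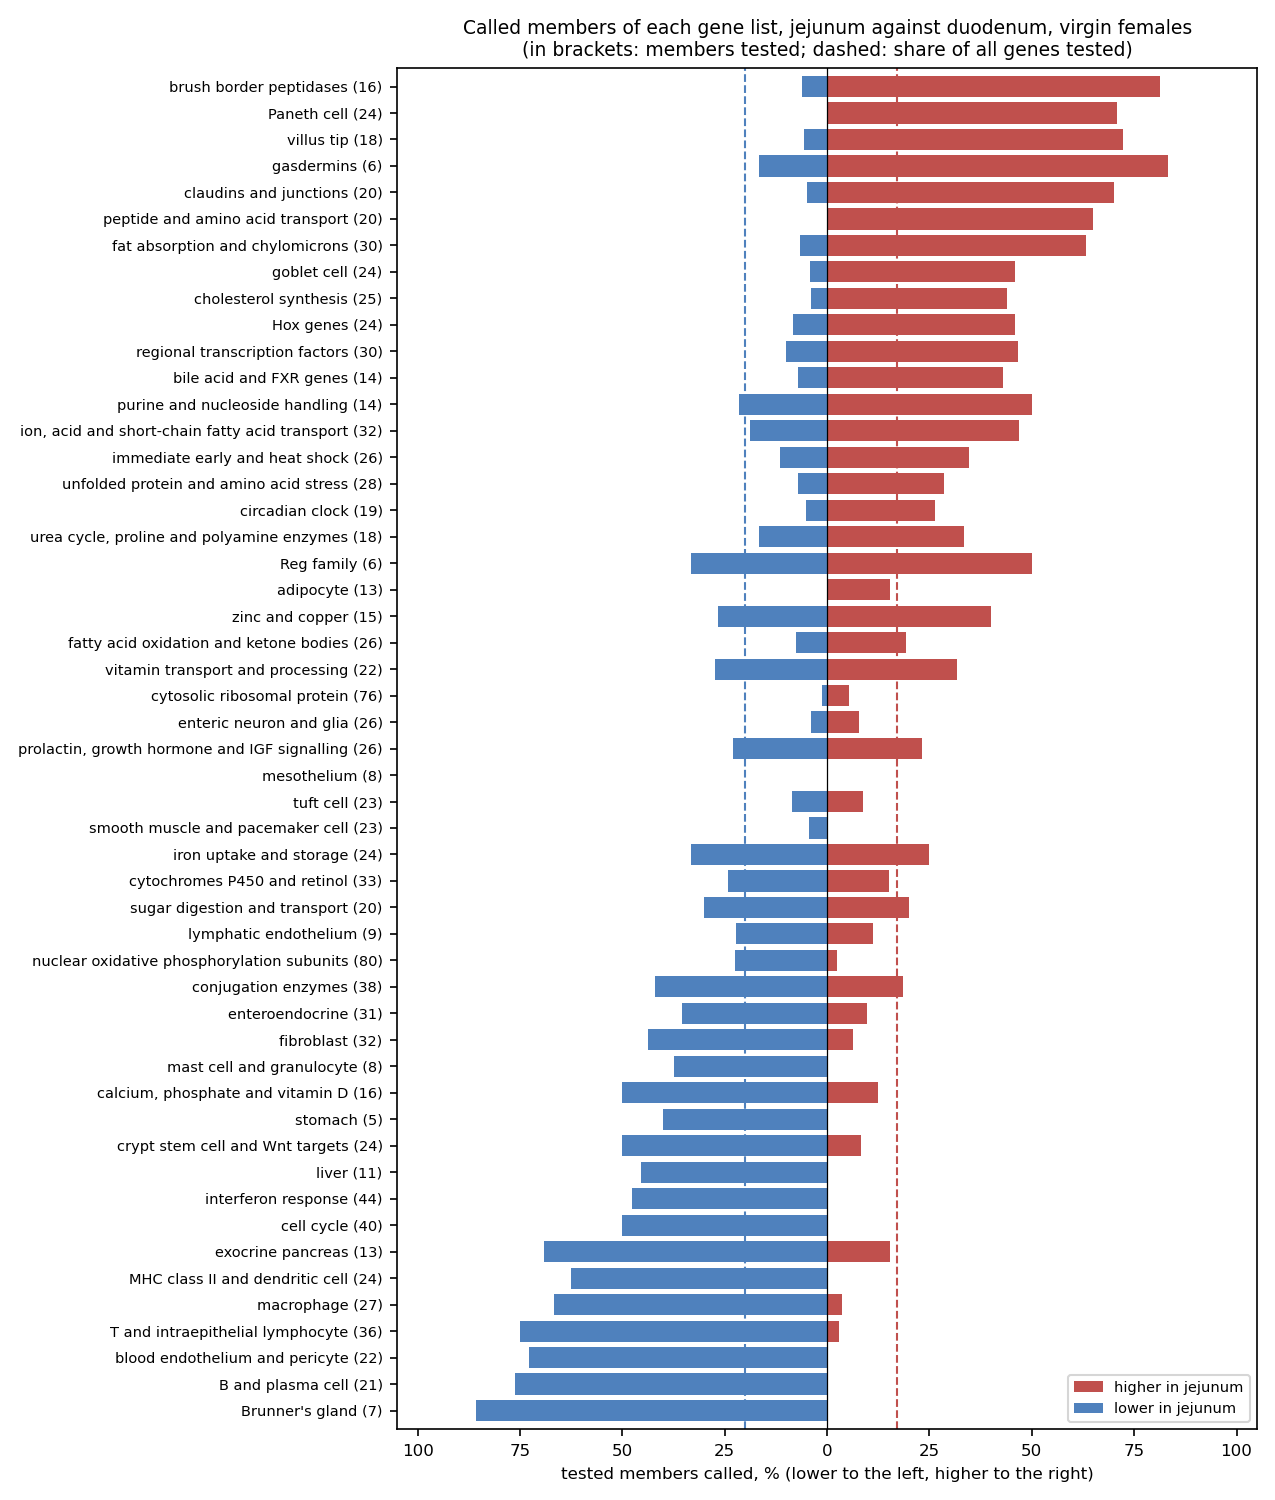
Share of tested members of each gene list that edgeR called higher in the jejunum (bars to the right) or lower in it (bars to the left), in virgin females, for lists with at least 5 tested members. Dashed lines mark the shares of all tested genes, 17.2% higher and 20.0% lower. Gasdermins, peptidases, villus tip, Paneth cell and junction genes reach farthest right, and Brunner's gland, lymphocyte and blood endothelium genes farthest left.

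Genes of mature villus cells were higher in the jejunum. Of 18 tested villus tip genes 13 rose and 1 fell (median 0.85), among them Fabp2, Nt5e and Klf4. Of 20 claudin and junction genes 14 rose and 1 fell (median 0.55). Epcam, an adhesion molecule of epithelial cells, had 3244, 3474 and 4451 CPM in the jejunum, against 1384, 1687 and 2112 CPM in the duodenum (1.07 ± 0.15, adjusted p = 2.28e-05), a rise of the general epithelial marker in every jejunum library over every duodenum library. Cldn4, a sealing claudin, had 207, 270.4 and 413 CPM in the jejunum, against 55.04, 75.6 and 116 CPM in the duodenum (1.85 ± 0.27, adjusted p = 4.34e-05). Cldn2, which forms cation and water pores, was lower with 17.98, 28.5 and 44.9 CPM in the jejunum, against 59.4, 69.1 and 84.1 CPM in the duodenum (-1.26 ± 0.18, adjusted p = 2.54e-05) and was highest in the ileum at 307 CPM.

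The gasdermin C genes, whose products can form membrane pores, were higher. Gsdmc2 had 26.3, 27.2 and 168 CPM in the jejunum, against 0.324, 1.45 and 6.74 CPM in the duodenum (4.32 ± 0.61, adjusted p = 2.72e-05), and Gsdmc3 and Gsdmc4 changed by 5.35 ± 0.72 and 3.70 ± 0.50. Jejunum 5, the library with the highest Duox2, was far above the other jejunum libraries in all 3, and without it their changes were 3.42, 4.30 and 2.98. Without duodenum 6 Gsdmc2 was at 4.97 and Gsdmc3 at 6.56. Of 6 tested gasdermins 5 rose and 1 fell. The 3 Gsdmc genes are near-identical, so their counts are uncertain.

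Crypt genes were more often lower in the jejunum. Of 24 tested stem cell and Wnt target genes 2 rose and 12 fell (median -0.34), while 7 fell without jejunum 5 and 1 rose without duodenum 3 and 4. Lgr5, the marker of crypt stem cells, had 3.56, 4.86 and 7.66 CPM in the jejunum, against 6.67, 7.87 and 8.43 CPM in the duodenum (-0.57 ± 0.16, adjusted p = 0.00996). Olfm4, abundant in the same cells, had 166, 246 and 328 CPM in the jejunum, against 179.8, 243 and 331 CPM in the duodenum (-0.02 ± 0.16, adjusted p = 0.948) and was not called. Hopx fell by 0.93 ± 0.12 and Cdca7 by 0.91 ± 0.16, whereas the Wnt feedback gene Axin2 rose with 62.8, 71.3 and 76.04 CPM in the jejunum, against 25.5, 32.6 and 41.8 CPM in the duodenum (1.09 ± 0.14, adjusted p = 7.97e-06). Of 40 cell cycle genes none was called higher by edgeR and 20 were called lower (median -0.46), and 13 without jejunum 2 or without jejunum 5 and 12 without duodenum 3 and 4. Rrm2, which makes deoxynucleotides, had 9.78, 15.2 and 23.6 CPM in the jejunum, against 35.4, 42.5 and 47.2 CPM in the duodenum (-1.43 ± 0.16, adjusted p = 2.20e-06). The helicase subunits Mcm5 (-0.83 ± 0.16) and Mcm6 (-0.78 ± 0.12) fell without overlap. Mki67, the general proliferation marker, had 61.8, 92.3 and 135 CPM in the jejunum, against 70.8, 112 and 160.2 CPM in the duodenum (-0.26 ± 0.18, adjusted p = 0.29) and was not called.

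Paneth cell genes were higher in the jejunum. Of 25 listed 24 were tested, 17 rose and none was called lower (median 1.5). Defa22, an antimicrobial alpha-defensin, had 132, 383 and 1228 CPM in the jejunum, against 3.77, 10.04 and 20.5 CPM in the duodenum (5.5 ± 0.59, adjusted p = 1.09e-06). Defa20 had 5.19, 22.1 and 76.1 CPM in the jejunum, against 0.0877, 0.259 and 0.549 CPM in the duodenum (6.58 ± 0.66, adjusted p = 5.61e-07) and Defa2 had 4.72, 32.1 and 85.1 CPM in the jejunum, against 0.0721, 0.297 and 1.01 CPM in the duodenum (6.41 ± 0.66, adjusted p = 7.11e-07). Defa32 had 0.234, 0.736 and 8.84 CPM in the jejunum and no duodenal read, at least 95.3-fold higher. Jejunum 3 was the highest library in Defa20, Defa22 and Defa32, and without it Defa20 was at 5.97. Defensin genes are near-identical copies, so their single counts are uncertain. The summed level of the Paneth list overlapped, with 2857 to 12865 CPM in the jejunum and 2442 to 4612 CPM in the duodenum.

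In the Reg family 3 rose and 2 fell of 6, while 1 rose without duodenum 4 and 1 fell without duodenum 6. Reg3g, an antibacterial lectin, had 545, 1149 and 4268 CPM in the jejunum, against 65.1, 231 and 987 CPM in the duodenum (2.18 ± 0.62, adjusted p = 0.0102), with a wide spread in both sections. Goblet cell genes had 11 rises and 1 fall of 24 (median 0.53), with 17 rises without jejunum 2 and no fall without any of 6 libraries. Muc2, the gel-forming mucin, had 869, 2375 and 3092 CPM in the jejunum, against 446, 907 and 1123 CPM in the duodenum (1.31 ± 0.24, adjusted p = 3.68e-04). Guca2a, the peptide guanylin that drives fluid secretion, had 264, 319.9 and 399.8 CPM in the jejunum, against 39.96, 50.7 and 60.7 CPM in the duodenum (2.68 ± 0.21, adjusted p = 1.47e-08), and Bcas1 rose by 1.23 ± 0.18. The sections overlapped in Muc2 and Bcas1 and not in Guca2a. Tuft cell genes had 2 rises and 2 falls of 23 (median 0.06, and -0.19 with totals alone), and 5 falls without jejunum 5. Called members made up 17.4% of the tuft cell list. The succinate receptor Sucnr1 rose by 2.54 ± 0.45, and Plcb2 and Ptgs1 fell by 0.92 ± 0.21 and 0.65 ± 0.15.

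Gut hormones went both ways. Of 31 tested enteroendocrine genes 3 rose and 11 fell (median -0.24). Nts, neurotensin, a hormone of the lower small intestine, had 36.9, 65.5 and 89.6 CPM in the jejunum, against 1.44, 3.41 and 5.84 CPM in the duodenum (4.17 ± 0.33, adjusted p = 2.20e-08). Pyy, peptide YY, which slows gastric emptying, had 4.17, 7.67 and 11.9 CPM in the jejunum, against 0.274, 0.683 and 1.91 CPM in the duodenum (3.22 ± 0.40, adjusted p = 5.75e-06). Cck, cholecystokinin, which releases bile and pancreatic enzymes, was lower with 5.03, 6.804 and 12.96 CPM in the jejunum, against 35.6, 46.2 and 67.2 CPM in the duodenum (-2.51 ± 0.24, adjusted p = 2.55e-07). Gip, an incretin, was lower with 34.2, 38.98 and 82.1 CPM in the jejunum, against 91.8, 117 and 188 CPM in the duodenum (-1.33 ± 0.27, adjusted p = 7.38e-04). These 4 did not overlap between sections.

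Sst, somatostatin, fell by 0.85 ± 0.24 with overlapping sections. Sct, secretin, had 19.4, 29.9 and 45.4 CPM in the jejunum, against 20.6, 24.9 and 32.6 CPM in the duodenum (0.24 ± 0.22, adjusted p = 0.421) and was not called.

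Immune cell genes were mostly lower in the jejunum. In the T and intraepithelial lymphocyte list 1 rose and 27 fell of 36 (median -0.96), in the macrophage list 1 rose and 18 fell of 27 (median -0.86), and in the MHC class II and dendritic cell list 15 of 24 fell and none was called higher (median -0.96). The summed level of the MHC class II list was not lower, with 1327, 3304 and 4902 CPM in the jejunum and 1384, 3165 and 4716 CPM in the duodenum. Without duodenum 3 and 4 that list had 12 falls and 1 rise (median -0.64). In the B and plasma cell list 16 of 21 fell (median -1.52). The B cell result rests on duodenum 4. Pax5 and Blk had 56.0 and 24.2 CPM in that library and at most 0.526 and 0.540 CPM in the other duodenum libraries. Without it 8 of the B and plasma cell genes were lower and Pax5 turned to 0.46. Of the T cell genes 18 fell without it and 16 without duodenum 3 and 4.

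Cd6, a T cell surface receptor, had 1.09, 1.89 and 3.21 CPM in the jejunum, against 3.42, 4.63 and 9.47 CPM in the duodenum (-1.47 ± 0.38, adjusted p = 0.00587) without overlap, and Cd8b1, a chain of the CD8 coreceptor, had 0.327, 0.812 and 1.66 CPM in the jejunum, against 1.52, 2.84 and 4.26 CPM in the duodenum (-1.79 ± 0.43, adjusted p = 0.00308). Cd2 was called (-1.80 ± 0.63) through duodenum 4 and was at -0.32 without it (adjusted p = 0.44), and the call was also lost without any of 5 jejunum libraries. H2-Ob, H2-Oa and H2-DMb2, which regulate peptide loading on MHC class II, fell by 3.44 ± 0.72, 3.18 ± 0.51 and 2.80 ± 0.60, and by 1.74, 2.36 and 1.48 without duodenum 4, still called. Csf1r, the growth factor receptor of macrophages, had 14.8, 24.3 and 44.5 CPM in the jejunum, against 33.2, 64.9 and 82.3 CPM in the duodenum (-1.32 ± 0.23, adjusted p = 2.01e-04), and the signalling adaptor Tyrobp had 3.602, 5.77 and 10.4 CPM in the jejunum, against 8.19, 17.9 and 21.1 CPM in the duodenum (-1.37 ± 0.24, adjusted p = 2.02e-04). Timd4, a receptor of resident macrophages, fell by 1.5 ± 0.29. Of granulocyte genes, Prg2, an eosinophil granule protein, had 0.589, 1.08 and 2.08 CPM in the jejunum, against 2.62, 4.04 and 5.801 CPM in the duodenum (-1.75 ± 0.33, adjusted p = 4.10e-04), and Csf3r and Gata2 fell by 1.30 ± 0.22 and 1.35 ± 0.26, which were the 3 called of 8 tested in that list. Called members made up 37.5% of the granulocyte list, near the 37.2% of all genes.

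Genes induced by interferon were more often lower in the jejunum. Of 44 tested 21 fell and none was called higher (median -0.74), and 18 fell without duodenum 3 and 4. Ifit3 had 8.69, 15.2 and 19.9 CPM in the jejunum, against 27.2, 37.6 and 76.1 CPM in the duodenum (-1.63 ± 0.26, adjusted p = 9.60e-05) and Oas2 had 5.34, 8.19 and 10.1 CPM in the jejunum, against 12.6, 23.9 and 39.00 CPM in the duodenum (-1.66 ± 0.26, adjusted p = 7.15e-05), both antiviral genes without overlap. Ifi44 had 2.53, 4.898 and 8.104 CPM in the jejunum, against 7.93, 18.5 and 31.4 CPM in the duodenum (-1.87 ± 0.35, adjusted p = 4.05e-04) and overlapped narrowly. The summed level of the list was 2214 to 3871 CPM in the jejunum and 2639 to 4934 CPM in the duodenum.

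**Figure D4:**
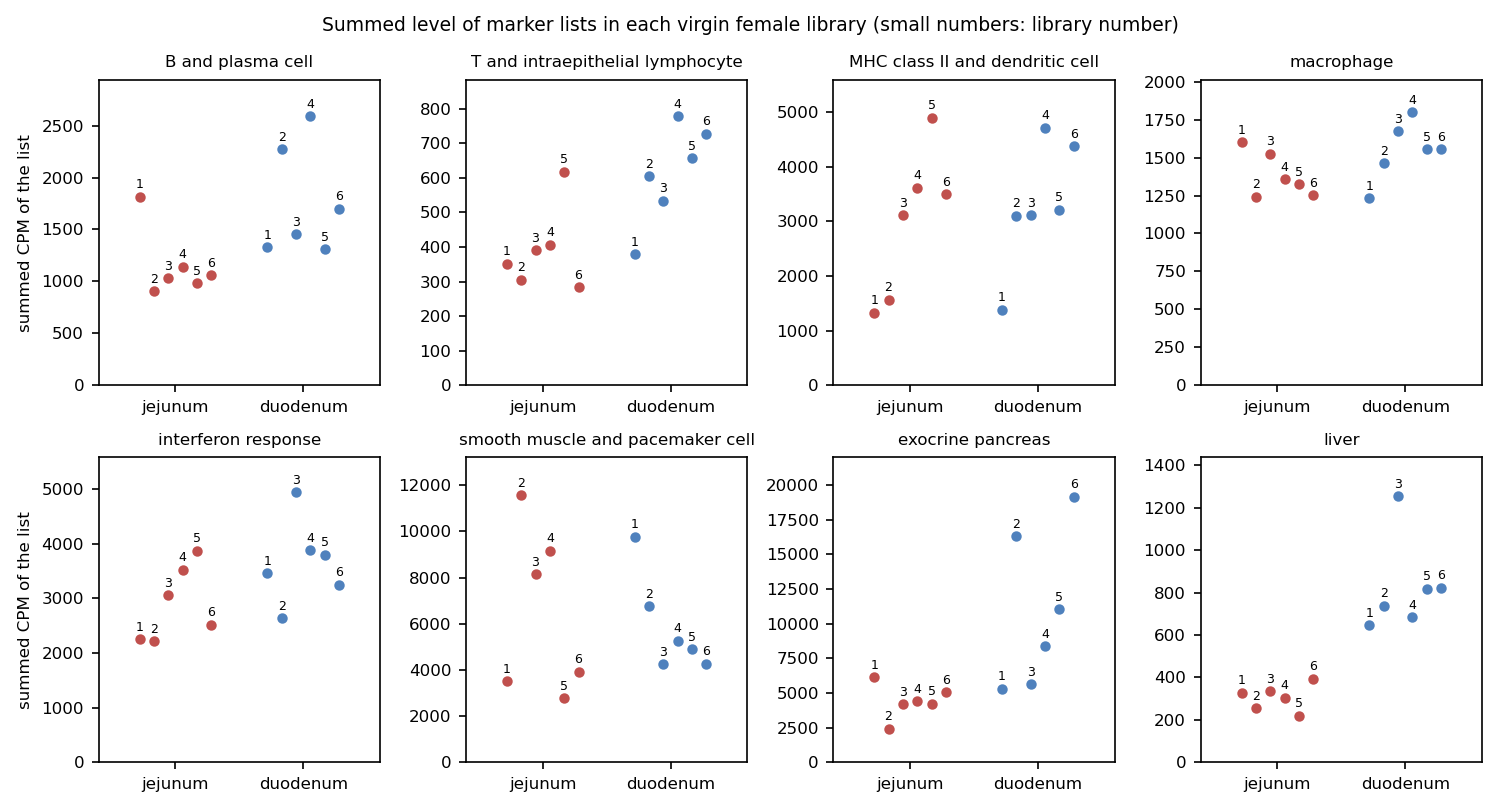
Summed CPM of 8 marker lists in each virgin female library, jejunum left and duodenum right, with the library number above each point. Duodenum 4 is highest in B and plasma cell genes, duodenum 3 in liver genes, and jejunum 2, 3 and 4 lie above jejunum 1, 5 and 6 in smooth muscle genes.

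Genes of the vessel wall and of connective tissue were more often called lower in the jejunum, and those of muscle were not. Of 22 blood endothelium and pericyte genes 16 fell and none was called higher (median -0.71). Eng, a receptor of endothelial cells, had 7.25, 12.02 and 15.5 CPM in the jejunum, against 17.2, 24.5 and 30.5 CPM in the duodenum (-1.03 ± 0.18, adjusted p = 2.37e-04), and Vwf, von Willebrand factor, had 5.71, 13.2 and 15.9 CPM in the jejunum, against 17.3, 24.1 and 30.9 CPM in the duodenum (-1.0 ± 0.20, adjusted p = 7.83e-04). Plvap, a protein of fenestrated capillaries, fell by 1.21 ± 0.21. Of 32 fibroblast genes 2 rose and 14 fell (median -0.46), and 1 rose without any of 7 libraries, where Col14a1, Col1a1 and Col3a1 fell by 1.04 ± 0.27, 0.93 ± 0.27 and 0.89 ± 0.26. The sections overlapped in Plvap and the collagens.

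Of 23 smooth muscle genes 1 was called lower and none higher (median 0.25). It was Ckb, the brain-type creatine kinase, with 205, 274 and 295 CPM in the jejunum, against 552, 645 and 787 CPM in the duodenum (-1.32 ± 0.13, adjusted p = 4.48e-07). The summed level of smooth muscle genes was 2782 to 3931 CPM in jejunum 1, 5 and 6 and 8149 to 11564 CPM in jejunum 2, 3 and 4, against 4262 to 9762 CPM in the duodenum. In jejunum 1, 5 and 6 blood endothelium genes summed to 267 to 474 CPM and fibroblast genes to 1126 to 1261 CPM. In jejunum 2, 3 and 4 they summed to 704 to 905 and 1771 to 1964 CPM. In the duodenum they summed to 582 to 1006 and 1666 to 2184 CPM. The same split of the jejunum libraries was the second principal component, and its part in the results for stromal genes was not tested.

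Enteric neuron and glia genes had 2 rises and 1 fall of 26 (median 0.09, and -0.11 with totals alone), with 4 rises without jejunum 6 and 1 without duodenum 3 and 4. Called members made up 11.5% of them. Erbb3 (0.68 ± 0.20) and Ret (0.64 ± 0.19) rose and Scn3a fell by 0.51 ± 0.18. The call of Ret was lost without duodenum 3 and 4 (adjusted p = 0.0552) and with library totals alone. Erbb3 is also an epithelial gene, and the call of Scn3a was lost without any of 8 libraries. In the lymphatic list Nts, also counted among the gut hormones above, rose, and Reln and Flt4 fell by 0.74 ± 0.20 and 0.54 ± 0.19. Called members made up 33.3% of the 9 tested, near the 37.2% of all genes. The call of Flt4 was lost without any of 5 libraries. Of 13 adipocyte genes Cidec (0.71 ± 0.25) and Lipe (0.79 ± 0.13), both of lipid droplets and also expressed in enterocytes, rose. Called members made up 15.4% of the adipocyte list, against 37.2% of all genes. All 13 changes were positive (median 0.86), and in virgin males all 13 were called higher (median 3.02). The call of Cidec was lost without any of 3 libraries, with adjusted p up to 0.0829. Of 8 mesothelial genes edgeR called none (median 0.17, and -0.04 with totals alone). Among them were Krt19, a keratin that epithelial cells also make, with 913, 1158 and 1643 CPM in the jejunum, against 816, 1012 and 1539 CPM in the duodenum (0.15 ± 0.19, adjusted p = 0.551), and Upk3b, with 0.111, 8.800 and 17.7 CPM in the jejunum, against 1.703, 6.51 and 17.01 CPM in the duodenum (0.19 ± 0.67, adjusted p = 0.849).

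Transcripts of the exocrine pancreas marked the duodenum libraries in unequal amounts. Of 34 listed genes 13 were tested, 9 fell and 2 rose (median -6.39), with 1 rise in 8 of the 12 fits without 1 library and none without duodenum 3 and 4. The risers were Spink1 and Zg16, named after their values were seen, which the intestinal epithelium also makes. They averaged 911 and 3396 CPM in the jejunum, where the whole list summed to 2426 to 6132 CPM. Ctrb1, the digestive enzyme precursor chymotrypsinogen, had 0.0553, 0.09205 and 0.198 CPM in the jejunum, against 0.581, 674 and 2163 CPM in the duodenum (-12.91 ± 1.38, adjusted p = 1.09e-06). Duodenum 3 was the lowest duodenum library, and the next had 167 CPM. Sycn, of zymogen granules, had 0.0936, 0.4200 and 0.663 CPM in the jejunum, against 0.955, 59.3 and 213 CPM in the duodenum (-7.75 ± 0.92, adjusted p = 3.95e-06), and Pnliprp1, a lipase-related protein, had 0.374, 0.618 and 0.791 CPM in the jejunum, against 0.623, 181 and 479 CPM in the duodenum (-8.41 ± 0.97, adjusted p = 2.74e-06). When duodenum 3 or any jejunum library was left out, more pancreatic genes passed the expression filter, and 24 to 26 were called lower.

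The Brunner's glands, mucous glands under the proximal duodenum, were searched with 12 genes, of which 7 were tested and 6 fell (median -1.25). Gp2, a glycoprotein that is also abundant in pancreatic zymogen granules, had 0.0861, 0.214 and 0.332 CPM in the jejunum, against 1.12, 41.4 and 85.9 CPM in the duodenum (-7.69 ± 0.84, adjusted p = 1.48e-06). Duodenum 3, the library with almost no pancreatic transcripts, was the lowest duodenum library in Gp2, and what pancreatic tissue contributes to Gp2 was not tested. Dmbt1, a scavenger receptor secreted into mucus, had 353, 597 and 798 CPM in the jejunum, against 1474, 1607 and 1861 CPM in the duodenum (-1.48 ± 0.20, adjusted p = 1.53e-05) and was high again in the ileum at 1422 CPM. Lyz2, a lysozyme that macrophages also make, fell by 1.26 ± 0.27.

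Of 11 tested liver genes 5 fell and none was called higher (median -1.50). When duodenum 3 was left out 4 fell and 1 was called higher. The counts were the same without duodenum 3 and 4, with a median of -0.21. Ambp, a plasma protein precursor, had 0.258, 0.659 and 1.08 CPM in the jejunum, against 4.68, 5.295 and 9.55 CPM in the duodenum (-3.17 ± 0.33, adjusted p = 8.01e-07), and Ttr, the thyroxine carrier, had 0.775, 1.33 and 1.63 CPM in the jejunum, against 2.24, 3.52 and 13.3 CPM in the duodenum (-1.94 ± 0.39, adjusted p = 7.57e-04). The change of Ttr was -1.35 without duodenum 3, still called. Alb was called through 1 library: duodenum 3 had 195 CPM, no other duodenum library more than 2.5 and no jejunum library more than 0.905, and the adjusted p without duodenum 3 was 0.104. Among 5 tested stomach genes Gkn3, a gastrokine, was lower with 0.221, 0.6502 and 1.39 CPM in the jejunum, against 2.24, 3.31 and 5.99 CPM in the duodenum (-2.48 ± 0.40, adjusted p = 1.19e-04), 1 of 2 called. Among 4 endocrine pancreas genes Sst alone was called, and 2 were without jejunum 1. Called members made up 45.5% of the liver list, 40% of the stomach list and 25% of the endocrine pancreas list, against 37.2% of all genes. What these neighbouring tissues contribute to each library was not tested.

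The lists of stress, clock and growth genes had medians near 0. Called members made up 46.2% of immediate early and heat shock genes, 35.7% of unfolded protein and amino acid stress genes, 31.6% of clock genes and 46.2% of growth signalling genes, against 37.2% of all genes. Immediate early and heat shock genes had 9 rises and 3 falls of 26 (median 0.15, and -0.09 with totals alone). Atf3 had 27.5, 49.4 and 71.2 CPM in the jejunum, against 12.03, 17.05 and 20.00 CPM in the duodenum (1.5 ± 0.23, adjusted p = 7.51e-05), Fosl2 rose by 1.23 ± 0.15, and Egr3 fell through duodenum 4, with an adjusted p of 0.247 without it and 0.0509 without jejunum 6. Unfolded protein and amino acid stress genes had 8 rises and 2 falls of 28 (median 0.14, and -0.08 with totals alone), with 5 rises without jejunum 5 and 1 fall without any of 6 libraries. Chac1 rose by 2.33 ± 0.49 and Ddit3 by 0.80 ± 0.17, both targets of the stress factor ATF4, and Phgdh, the first enzyme of serine synthesis, fell by 1.08 ± 0.21.

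Clock genes had 5 rises and 1 fall of 19, with 2 falls without jejunum 1 (median 0.15, and -0.07 with totals alone). Cry2, a repressor of the clock, had 27.4, 31.02 and 37.8 CPM in the jejunum, against 11.4, 14.8 and 20.6 CPM in the duodenum (1.08 ± 0.16, adjusted p = 3.91e-05), while Hlf fell by 1.19 ± 0.25. Of 26 genes of prolactin, growth hormone and IGF signalling 6 rose and 6 fell (median 0.00, and -0.21 with totals alone). Igf2, a growth factor, had 13.7, 19.4 and 23.5 CPM in the jejunum, against 3.65, 5.44 and 6.27 CPM in the duodenum (1.86 ± 0.17, adjusted p = 1.57e-07). Igfbp3, which binds it in plasma, fell by 1.06 ± 0.19, and Socs3, a brake on cytokine signalling, rose by 1.08 ± 0.18.

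Cytosolic ribosomal protein genes had 4 rises and 1 fall of 76 (median 0.09, and -0.14 with totals alone), with 10 rises without duodenum 1 and 2 without duodenum 3. Rps27l, a ribosomal protein, rose by 0.64 ± 0.15, and Rpl34, another, fell by 0.77 ± 0.27. The call of Rpl34 was lost without any of 6 libraries and without duodenum 3 and 4. It was also lost with a replicate block and in a fit of the 12 libraries alone. Nuclear genes of oxidative phosphorylation had 2 rises and 18 falls of 80 (median -0.21), with 4 rises without duodenum 6. Cox6b2 and Ndufb4 rose by 1.54 ± 0.25 and 1.02 ± 0.21, and Ndufc1 fell by 0.79 ± 0.17. Called members made up 6.58% of the ribosomal list and 25% of the respiratory list, both below the 37.2% of all genes.

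The same difference was read in virgin males, which share no library with the females. In them 7571 of 15112 genes were called (50.1%), 3642 higher in the jejunum (24.1%) and 3929 lower (26.0%). Of the 2599 genes higher in females, 2305 were also higher in males, 88.7% of the female calls and 63.3% of the male calls. Of the 3036 lower genes 2571 were lower in males, 84.7% and 65.4%. No gene was called in opposite directions. The sign was the same for 2570 of 2589 higher genes tested in both and for 2997 of 3012 lower ones.

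The leading genes had like values in males: Slc5a8 11.58 ± 0.28, Plb1 10.10 ± 0.90, Fam151a 8.90 ± 0.57 and Enpp7 5.33 ± 0.69 on the rising side, and Tmprss15 -11.48 ± 0.39, Akp3 -10.35 ± 0.58, Pdx1 -8.92 ± 0.47 and Sult6b2 -6.55 ± 0.58 on the falling side. Slc5a1 and Sis were not called in males either, at 0.05 ± 0.19 and 0.17 ± 0.25. Apoa4 was called in males (0.76 ± 0.23, adjusted p = 0.0109 by edgeR), as was Mki67 (-0.36 ± 0.10, adjusted p = 0.00742). A test of the difference itself, the section change in females minus that in males, called 0 of 15163 genes by edgeR (0.00%), with 400 at an unadjusted p under 0.05, which is 2.64%, and 7 by DESeq2. The 7 were Tat, 2210010C04Rik and the pancreatic enzyme genes Cpa1, Prss2, Cela2a, Cela3b and Pnlip, with fitted differences from -16.13 to 16.78. Pancreatic transcripts were unequal between the female duodenum libraries, and their part in these calls was not tested.

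**Figure D5:**
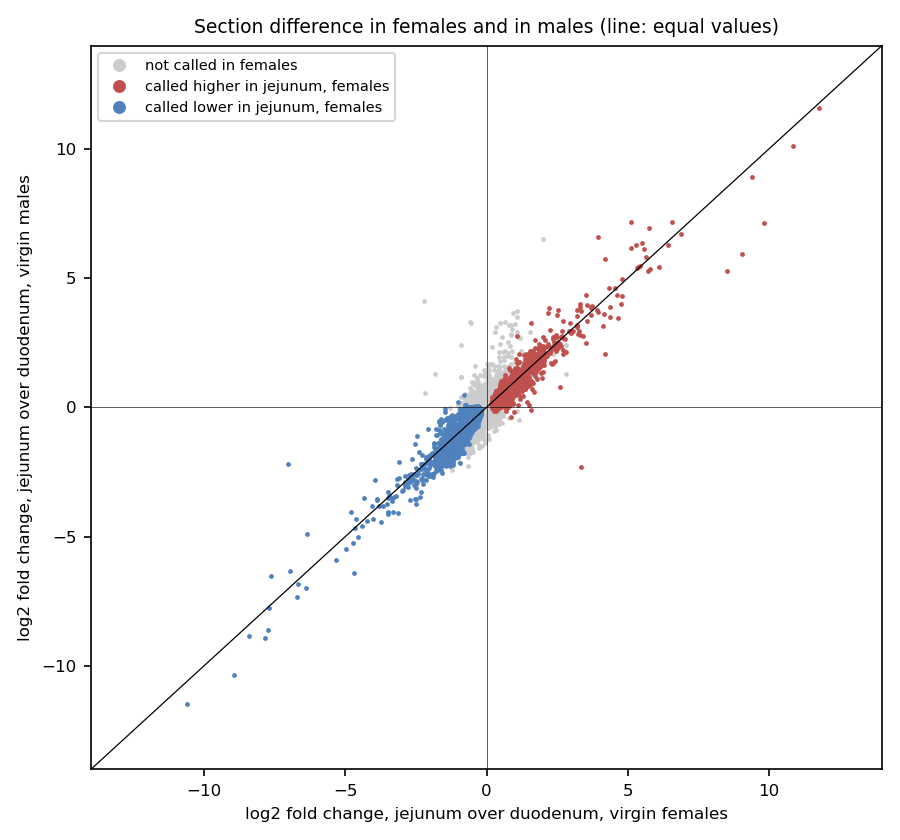
Log2 fold change of jejunum over duodenum in virgin females (horizontal axis) and virgin males (vertical axis), 1 point a gene, coloured by the female call, with a line of equal values. Points called in females lie along the line in both directions, and 99.3% of those higher and 99.5% of those lower have the same sign in males.

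Lactating females were compared with and without 2 libraries. The libraries labelled lactating female jejunum 3 and lactating female duodenum 3 go against their labelled section. By library totals, the library labelled jejunum 3 had 61.9 CPM of Tmprss15 and no read of Slc5a8, and the library labelled duodenum 3 had no read of Tmprss15 or Pdx1 and 109945 CPM of Alb. With them 1747 of 15053 genes were called (11.6%), 567 higher (3.77%) and 1180 lower (7.84%), and without them 4125 of 15080 (27.4%), 1958 higher (13.0%) and 2167 lower (14.4%). Of the female virgin calls, 1489 higher and 1729 lower genes were then called the same way in lactation, 57.3% and 56.9% of the virgin calls and 76.0% and 79.8% of the lactating ones, and none the opposite way.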

How the data were processed

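Polyadenylated RNA was sequenced from strand-specific libraries. The deposited files hold raw read counts per gene symbol for each library, in the layout of STAR's gene counts, with 25229 symbols and 4 entries for reads assigned to no gene. The build GRCm38 and the tools STAR 2.7.7a, DESeq2 1.34.0 and FastQC 0.11.5 are listed, per the submitters' processing notes, with no roles, and the gene annotation is not given in the sources used here. Column 4 was used, which held 97.9% to 98.5% of the stranded gene reads of the 12 libraries, and 20.0% to 31.7% of their reads were assigned to no gene. Reads that map to several places are not in such counts, so near-identical genes (Defa, Gsdmc, Reg, Ces, Cyp2c and Gsta families) are uncertain.

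The main test was the quasi-likelihood F test of edgeR 4.0.16 under R 4.3.3, fitted to the 18 libraries of virgin females (3 sections), which share 1 estimate of the spread, without covariates. Low genes were removed with filterByExpr (count 10, total 15), TMM factors scaled the libraries, and p-values were adjusted over all genes tested by the Benjamini-Hochberg method and called under 0.05. The standard error is the absolute log2 fold change over the square root of F. A bound against a group without reads was set at 3 counts over the group and covers counting error only. Virgin males and lactating females were fitted alike, and the difference between females and males was a contrast in 1 fit of their 24 jejunum and duodenum libraries. The fit was tested on simulated counts.

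The members and the 52 gene lists were chosen with earlier results of these data known. Named genes were the 12 largest called rises and falls among genes with separate sections and a mean log2 CPM of at least 1, the 8 largest gains and losses of CPM, up to 3 called members of each list, and a set that was always named, and some of these are not reported here. Principal components used log2 CPM with a prior count of 2. Alternatives were median-of-ratios scaling, library totals alone, DESeq2 1.42.0, limma-voom 3.58.1, other filters, a replicate block, a fit of the 12 libraries alone, and leaving out each library. Leaving out duodenum 3 and 4 together was added after the data were seen. Promoters came from RefSeq: 11924 of 15154 tested genes had one, and the 9556 with a single one were used.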

Additional observations from a re-analysis of the deposited data

Results flagged for a closer look

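For 174 genes that the rule for named genes chose, each section's 6 libraries were searched for a highest or lowest library whose gap to the next exceeded Dixon's critical value for the share of the range. Of 348 groups 57 did so. The critical value gives about 1 in 20 for independent values with a normal spread, which CPM of related genes need not have. The 57 can therefore not be compared with chance. Groups without a read in any library are counted in the 348 but could not be searched. The values are CPM.

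Duodenum 2 was far above its section in 10 genes, mostly of iron, calcium and duodenal identity: Akp3 at 4856, Slc40a1 at 632, Col3a1 at 471, Slc30a10 at 280.3, S100g at 244, Col1a1 at 227, Otop3 at 200.0, Slc37a2 at 118, Cybrd1 at 72.6 and Pdx1 at 68.9. Duodenum 4 was highest in 8 genes, most of them of B cells and antigen presentation: Lyz2 at 212, H2-Ob at 57.9, Pax5 at 56.0, H2-DMb2 at 41.3, Blk at 24.2, H2-Oa at 11.7, Egr3 at 9.19 and Cd2 at 8.62. It was lowest in Cox6b2, at 2.08. Duodenum 3 was highest in the plasma protein genes Alb at 195, Ttr at 13.3 and Ambp at 9.55, and in Duoxa2 at 1.495. Duodenum 1 was highest in Cdca7 at 106 and Fabp6 at 0.338, and lowest in Muc2 at 446 and Plvap at 55.2. Duodenum 5 was highest in P2ry4 at 0.263. Duodenum 6 was highest in Cyp2c29 at 72.0, Slc28a1 at 58.8 and Gsdmc3 at 1.84.

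Jejunum 5 was highest in 11 genes: Apoa1 at 22001, Duox2 at 886, Klf4 at 820.1, Fosl2 at 631, Gsdmc4 at 201, Duoxa2 at 198, Acsl3 at 178, Gsdmc2 at 168, Gsdmc3 at 74.2, Plcb2 at 11.01 and Slc37a2 at 2.10. Jejunum 3 was highest in 7, among them genes of Paneth cells and of the ileum: Plb1 at 1692, Defa22 at 1228, Defa20 at 76.1, Slc10a2 at 14.1, Fabp6 at 13.7, Defa32 at 8.84 and Cd2 at 0.988. It was lowest in Onecut2, at 8.89. Jejunum 1 was highest in Pigr at 6536, Slc43a2 at 1443 and Socs3 at 66.7. Jejunum 2 was highest in Alb at 0.905 and lowest in P2ry4 at 1.13. Jejunum 6 was highest in Ces1g at 4.21 and lowest in Ptgs1 at 16.5. The causes were not tested.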

How the results depend on the processing

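The count of 5635 called genes stayed within 1.5 times under all 22 alternatives run on it, and was 4802 to 5642 when 1 library was left out (2210 to 2928 higher, 2539 to 3022 lower). With library totals alone 1394 were higher and 5650 lower in virgin females, and 1650 and 7141 in virgin males. Calls shared with males were 4876, and 4273 to 4884 without 1 library. In lactating females 1747 genes were called (567 higher, 1180 lower), against 944 (308 and 636) with totals alone, 1015 higher with DESeq2, and 4125 (1958 and 2167) without the 2 libraries that go against their label. The section difference of females minus males called 0 genes with edgeR, also without any 1 library, and 7 with DESeq2 (2 higher, 5 lower).

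No pairing of the sections by library number was seen: own-number correlations ran from -0.24 to 0.15, and 0 of 6 jejunum libraries correlated best with their own number. Libraries of a section also differed in tissue content, so these correlations cannot show whether equal numbers mark the same animal. A replicate block gave 5653 calls in virgin females, and 855 (363 higher, 492 lower) in lactating females. With the block Sis was at 0.0596 and Upk3b at -0.12.

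Of 166 called named genes 151 stayed called under every alternative that gave them an adjusted p. When 1 library was left out 152 stayed called in every such fit that gave them an adjusted p. Among the 151, Ctrb1, Defa32, Fabp6, Fgf15, H2-Ob and Pnliprp1 had an adjusted p in 21 of the 22 alternatives. Signs turned for Krt19 (-0.0689, totals alone), Olfm4 (0.00147) and Sis (0.00182) with median-of-ratios scaling and with DESeq2 alike, Sis (0.10) and Upk3b (-0.88) with limma-voom, and Blk (0.0372), Pax5 (0.32), Sis (0.20) and Upk3b (-0.15) without duodenum 3 and 4. When 1 library was left out Olfm4 ranged from -0.12 to 0.0867, Sis from -0.14 to 0.24, Upk3b from -0.14 to 0.60, Slc5a1 from -0.24 to 0.0508 and Pax5 from -4.84 to 0.46. List counts of 0 or 1 changed by at most 1 gene when a library, or duodenum 3 and 4, was left out. Of 2288 counts of list members 181 moved by over 1.5 times. The cause was not tested. Genes with a few reads in a section have fold changes that depend on depth.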
